A study of Mus musculus with 2 samples.

Results

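The 37 genes described here encode the machinery of the endoplasmic reticulum (ER) that folds secreted proteins, removes the ones that fail to fold, and senses the load. They were chosen by name, from a list of ER chaperones, folding enzymes, degradation factors, stress sensors and translocation subunits; the rule used no measured value, but the list was drawn up with earlier results of these data known. All 37 were found among the 20284 genes named on the array, through 47 probes printed in 65 spots. The arrays held cRNA from pooled mouse liver of strain C57B6J, wild type (WT) or CREBH KO, and the same 2 genotypes were compared in mice fed ad lib and in mice after a fast of 24 h. Each of 2 arrays carried 1 WT pool labelled with Cy3 and 1 CREBH KO pool labelled with Cy5, so the study has 4 pools and 1 pool per group. The age of the mice, their sex, the number of livers in a pool and the way the CREBH allele was made are not given in the sources used here.

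Proteins that enter the ER pass through the Sec61 channel, lose their signal peptide and gain sugar chains, and are then held by chaperones of the Hsp70 and Hsp90 families, by the lectins calnexin and calreticulin, and by disulfide isomerases. Molecules that stay unfolded are passed back through the membrane and degraded, a route called ER-associated degradation. When the load rises, the sensors IRE1, PERK and ATF6 start the unfolded protein response, which induces chaperone and degradation genes through the transcription factors XBP1, ATF6 and ATF4. Liver makes most plasma proteins and depends on this machinery. CREBH, encoded by Creb3l3, is a liver transcription factor that sits in the ER membrane and, like ATF6, is released by cleavage in the Golgi; it is best known for genes of lipid handling and of the acute phase.

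Many of these genes share a sequence upstream of their start, the ER stress response element (ERSE), CCAAT and CCACG with 9 bases of any kind between them, which was described as the element through which ATF6 and XBP1 act. The promoters used were those of RefSeq on GRCm38.p6, from 250 bases before the start site to 50 after it, matched by symbol, and 30 of the 37 genes had one. Read on both strands, the full element was in 9 of these 30 genes (30.0%), against 0.137% of all 27025 genes with a promoter. Counted by promoter, it was in 0.119% of all 32851. The shorter ERSE-II, ATTGG and CCACG with 1 base between them, was in 0.0365% of all promoters, and the core of the unfolded protein response element (UPRE), TGACGTG, in 2.01%. The ends of the ERSE taken alone were common, CCAAT in 37.4% and CCACG in 32.8% of all promoters, so the rarity lay in their spacing. A match describes the letters and does not show that a factor binds there. The elements are printed because members with and without one are compared further on, each read from CCAAT to CCACG, with those ends in capitals and 10 bases on either side; the coordinates are those of the element and the strand is the one printed.
Hspa5, chr2:34772025-34772043, plus strand: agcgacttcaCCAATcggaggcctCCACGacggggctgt
Hsp90b1, chr10:86705533-86705551, plus strand: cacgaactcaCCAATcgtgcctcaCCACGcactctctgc
Hsp90b1, chr10:86705638-86705656, minus strand: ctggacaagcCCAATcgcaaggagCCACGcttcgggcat
Dnajc3, chr14:118937827-118937845, plus strand: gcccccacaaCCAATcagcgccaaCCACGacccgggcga
Creld2, chr15:88819520-88819538, minus strand: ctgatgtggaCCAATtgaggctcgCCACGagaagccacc
Calr, chr8:84847075-84847093, plus strand: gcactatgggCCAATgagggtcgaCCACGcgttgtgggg
Canx, chr11:50325800-50325818, minus strand: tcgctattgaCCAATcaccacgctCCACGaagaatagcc
Pdia6, chr12:17266491-17266509, plus strand: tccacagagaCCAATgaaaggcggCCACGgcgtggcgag
Derl3, chr10:75893242-75893260, minus strand: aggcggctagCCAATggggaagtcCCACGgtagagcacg
Syvn1, chr19:6046532-6046550, plus strand: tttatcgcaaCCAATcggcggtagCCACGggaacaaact

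All of them lay upstream of the start site, the farthest at -212 in Hsp90b1 and the nearest ending at -26 in Syvn1. The ERSE-II was in 2 members, Herpud1 and Dnajb11, and the UPRE core in 2, Hspa5 and Sec24d. In Dnajb11 it lay after the start site, at positions 7 to 17, and in Sec24d the UPRE core lay at -26 to -20. Herpud1 held the ERSE-II at chr8:94386377-94386387 on the plus strand, shown here with its fixed letters in capitals.
Herpud1: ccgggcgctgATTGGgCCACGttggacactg
The promoters of Hspa5 and Derl3 are printed whole, the 250 bases up to the start, because these were the members at least 1.5-fold higher in the CREBH KO pool in both feeding states. Capitals mark the ERSE in both and, in Hspa5, also the UPRE core. In Derl3 the ERSE runs on the opposite strand, so it reads as CGTGG followed by ATTGG. Both genes are on the plus strand, at chr2:34771840-34772089 for Hspa5 and chr10:75893148-75893397 for Derl3.
Hspa5: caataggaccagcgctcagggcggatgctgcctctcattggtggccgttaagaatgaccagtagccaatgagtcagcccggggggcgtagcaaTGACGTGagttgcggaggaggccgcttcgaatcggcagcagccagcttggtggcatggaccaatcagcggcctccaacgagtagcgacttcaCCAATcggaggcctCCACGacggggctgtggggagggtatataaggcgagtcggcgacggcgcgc
Derl3: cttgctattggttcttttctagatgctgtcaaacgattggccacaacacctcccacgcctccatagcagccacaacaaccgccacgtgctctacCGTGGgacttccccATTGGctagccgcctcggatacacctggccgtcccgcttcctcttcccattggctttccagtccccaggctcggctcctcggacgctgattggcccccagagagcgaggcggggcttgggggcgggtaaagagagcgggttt

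Signals are given as log2 normalized intensity, a scale on which a difference of 1 is 2-fold, and levels are compared only within a gene. With 1 pool per group and no array with the dyes exchanged, no test between genotypes or feeding states could be made, and genotype and dye cannot be told apart. Genes are therefore described by size, with at least 1.5-fold as the mark. The error at hand is technical: 10 spots of the same probe had a median SD of 0.09 for the log2 KO over WT ratio in fed liver, over 235 probes, and 0.08 in fasted liver, over 258, and the scanner's own error for the members was 0.20 to 0.24. Between 39.9% and 45.9% of the 59305 gene spots were above background in a pool, none was saturated, and all 37 genes were measured in every comparison. The Creb3l3 probe gave log2 levels of 14.00 in WT and 13.12 in KO when fed, and 15.03 and 12.95 when fasted. The KO over WT ratios were thus -0.88 and -2.07, and -0.46 and -1.68 with arrays centred on measured genes. Centring on the median spot, which put the median of all genes at 0.78 fed, gave 0.31 fed and -1.11 fasted; whether the probe lies in the deleted part is not known here. In liver as a whole, fewer cells of a type and less RNA per cell cannot be told apart.

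The ER genes stood as a block slightly higher in CREBH KO than in WT liver, in both feeding states. In fed liver 34 of 37 had a KO over WT ratio above 0, where 53.1% of all measured genes did, and in fasted liver 32 of 37, where 52.7% did. On both arrays 31 members were above 0, against 33.2% of all genes. The median member stood 0.23 above 0 in each state, while the median of all genes was 0.01 in each. Differences of this size lie near the scanner error of a single spot. On each array 22 members exceeded 2 times the technical SD between spots upward, where 18.5% (fed) and 20.8% (fasted) of all genes did. Downward, 0 members did in fed and 4 in fasted liver (P4hb, Derl1, Os9 and Sec24d). Beyond 2 times the scanner error, 7 members in fed and 8 in fasted liver were higher, and P4hb was lower in fasted liver. The shares of all genes were not taken for the downward counts or for the counts by scanner error. Whether those counts are unusual for this array is therefore not known. The exceptions at or under 0 were Erp44, Ppib and Os9 in fed liver and P4hb, Erp44, Derl1, Os9 and Sec24d in fasted liver. With arrays centred on measured genes, Ppib and Os9 in fed liver and Derl1 and Os9 in fasted liver were above 0.

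**Figure D1:**
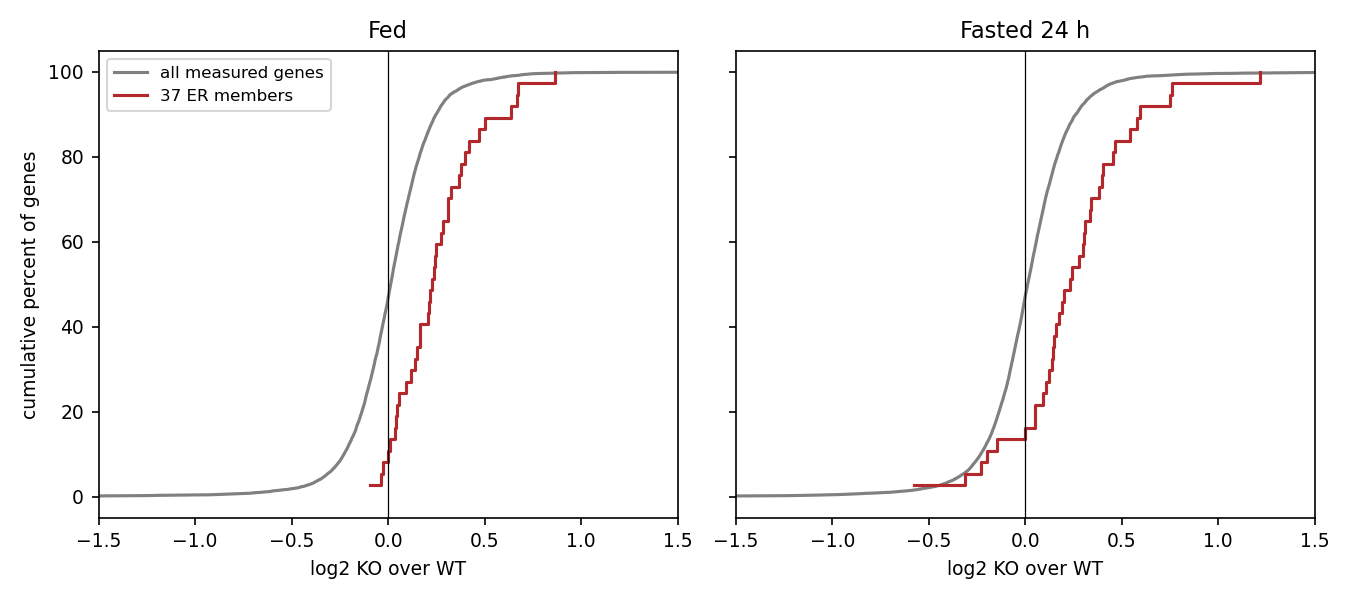
Cumulative percent of genes against the log2 KO over WT ratio in fed and in fasted liver, for all measured genes (grey) and for the 37 ER genes (red). The red steps lie to the right of the grey line on both arrays, crossing 50% at 0.23 where all genes cross it at 0.01.

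Members at least 1.5-fold higher in KO numbered 4 of 37 on each array, where 1.33% of all genes were in fed and 1.26% in fasted liver. They were Hspa5, Creld2, Derl3 and Herpud1 when fed, and Hspa5, Hsp90b1, Sdf2l1 and Derl3 when fasted. No member was 1.5-fold lower in either state, against 1.41% and 1.48% of all genes, so the same 4 were those at least 1.5-fold apart in either direction, where 2.73% of all genes were on each array. Hspa5 and Derl3 passed the mark on both arrays, which 0.221% of all genes did. Only Derl3 reached 2-fold, in fasted liver, where 0.359% of all genes were at least 2-fold higher, against 0.158% in fed liver; 0.396% and 0.432% of all genes were 2-fold lower.

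The members are bright genes, with a median log2 signal of 11.18 over the pools against 8.68 for genes measured in all pools. Loess holds the ratios of bright genes as a set near 0 by construction. Of genes at least as bright as the median member, 46.2% were above 0 in fed and 42.0% in fasted liver, with 3.53% and 1.3% at least 1.5-fold higher. The part of signal level in the members' position was not tested. Of 10 further measured probes for these genes, 9 were above 0 in fed and 8 in fasted liver.

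**Figure D2:**
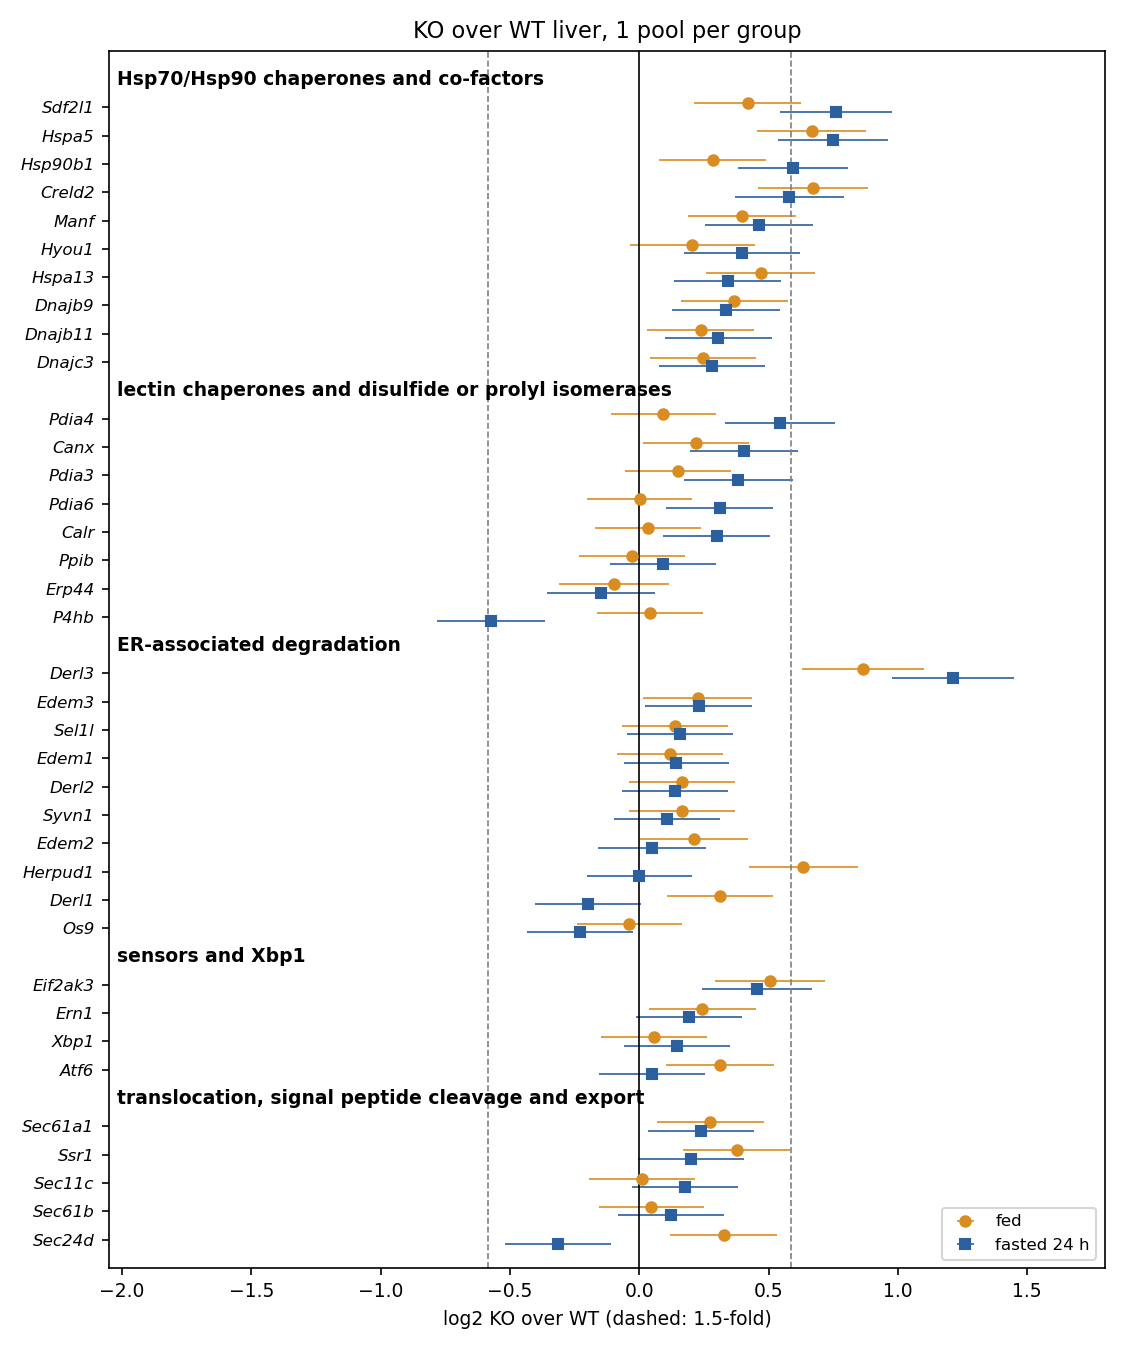
Log2 KO over WT ratio of each of the 37 genes in fed (orange circles) and fasted (blue squares) liver, grouped by role, with the scanner's error of the ratio as bars. Points lie mostly to the right of 0, Derl3 farthest at 0.86 and 1.21, and P4hb farthest to the left at -0.57 in fasted liver.

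The Hsp70 and Hsp90 chaperones with their co-factors stood highest as a group: all 10 were above 0 on both arrays, with medians of 0.38 fed and 0.43 fasted. Hspa5, which encodes BiP, the main Hsp70 of the ER and the protein that keeps the sensors silent, had log2 levels of 14.11 in WT and 14.78 in KO when fed, and 14.19 and 14.94 when fasted. Both KO pools were above both WT pools, by 1.59-fold fed and 1.68-fold fasted, and the feeding states nearly coincided within a genotype. Creld2, an ER stress-induced protein with isomerase activity, was read by a probe printed 10 times. Its level was 12.30 in WT and 12.98 in KO when fed, and 12.70 and 13.28 when fasted. The ratios were 0.67 ± 0.08 (SD over 10 spots) and 0.58 ± 0.06. The fasted minus fed difference of the ratios was -0.09 ± 0.06 over the same spots.

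Hsp90b1, which encodes GRP94, the Hsp90 of the ER, had levels of 13.45 in WT and 13.73 in KO when fed, against 13.47 and 14.06 when fasted. WT was level across feeding states, and the fasted KO pool stood alone at the top, 1.51-fold above WT. Sdf2l1, a partner of BiP that limits aggregation, had levels of 10.36 in WT and 10.78 in KO when fed, and 9.66 and 10.42 when fasted. KO exceeded WT by 1.34-fold and 1.70-fold, and the fasted WT pool was the lowest of the 4.

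The other 6 chaperones and co-factors were above 0 by 0.21 to 0.47 in fed and 0.28 to 0.46 in fasted liver. Hspa13, a microsomal Hsp70, had ratios of 0.47 and 0.34. Manf, a secreted and ER-resident stress factor, had 0.40 and 0.46. Hyou1, the nucleotide exchange factor of BiP, had 0.21 and 0.40, but it was dim: the authors' deposited table gives 0.42 and 0.67, and centring on measured genes gave -0.21 in fed liver, which made it the exception to a group above 0. The J-domain proteins, which hand clients to BiP, lay close together: Dnajb9 at 0.37 and 0.34, Dnajb11 at 0.24 and 0.30, and Dnajc3 at 0.25 and 0.28. For Dnajb11 this holds for the brighter probe, as the dimmer one gave 0.14 and 0.013.

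The lectins and isomerases were near 0 in fed liver, with a median of 0.04, and at 0.30 in fasted liver, 6 of 8 being above 0 on each array. Pdia4, a disulfide isomerase, showed this most: its levels were 9.93 in WT and 10.03 in KO when fed, and 10.27 and 10.82 when fasted. The ratio was 0.09 fed and 0.54 fasted. Canx, the membrane-bound lectin calnexin, had 0.22 and 0.40, and Calr, its soluble relative calreticulin, 0.03 and 0.30. Pdia3, the isomerase that works with both lectins, had 0.15 and 0.38. The 2 probes of Pdia6 disagreed in fed liver: the brighter one gave 0.00 fed and 0.31 fasted, the dimmer 0.51 in each. With arrays centred on measured genes, the group's fed ratios ran from 0.26 (Pdia4) to 0.54 (Canx), apart from Erp44 at -0.31. The group's place near 0 in fed liver therefore holds for the loess values.

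P4hb, the classical protein disulfide isomerase and a subunit of the collagen prolyl hydroxylase, went the other way. Its levels were 13.25 in WT and 13.29 in KO when fed, and 13.36 and 12.78 when fasted. The fasted KO pool stood alone at the bottom, with a ratio of -0.57, and P4hb was the member that lay below 0 by more than 2 times the scanner error. With arrays centred on measured genes it was at -0.24. Erp44, a retention factor for unassembled cargo, was at -0.10 and -0.15. Ppib, the ER cyclophilin, was at -0.03 and 0.09.

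Among degradation genes Derl3 had the largest difference of all members. It encodes a derlin, a membrane protein of the channel through which misfolded proteins leave the ER. Its level was 7.87 in WT and 8.74 in KO when fed, and 8.59 and 9.80 when fasted. KO exceeded WT by 1.82-fold and 2.32-fold, which placed the gene at rank 30 from the top of 11377 genes in fed and rank 31 of 12262 in fasted liver; the authors' deposited table gives log2 ratios of 1.27 and 1.28. Its relative Derl2 had 0.16 and 0.14 by its brightest probe. The other Derl2 probes gave 0.21 and 0.38, and -0.0014 and -0.09.

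Herpud1, a membrane component of the ubiquitin ligase complex, had levels of 12.21 in WT and 12.85 in KO when fed, and 13.09 in each when fasted. The genotypes were thus 1.55-fold apart in fed liver and level in fasted liver, and the fed WT pool stood alone at the bottom. Derl1 had a ratio of 0.31 in fed and -0.20 in fasted liver, but its second probe gave 0.14 and 0.06. The remaining degradation genes lay between -0.04 and 0.23 in fed and between -0.23 and 0.23 in fasted liver. The ligase Syvn1 (HRD1) was at 0.17 and 0.11 and its partner Sel1l at 0.14 and 0.16. Of the EDEM genes, which act in mannose trimming and sort misfolded glycoproteins for disposal, Edem3 had 0.23 in each state. Os9, a lectin that delivers glycoproteins to the ligase and was read by 10 spots, was at -0.04 ± 0.08 fed and -0.23 ± 0.06 fasted (SD over spots). With arrays centred on measured genes it was at 0.35 and 0.096, so its direction depended on the processing.

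All 4 genes of the sensor group, which are the sensors and Xbp1, were above 0 on both arrays, none by 1.5-fold. Eif2ak3, which encodes PERK, stood farthest: its levels were 8.19 in WT and 8.70 in KO when fed, and 7.92 and 8.37 when fasted. The ratios, 0.50 and 0.46, exceeded 2 times the scanner error in both states. Ern1, which encodes IRE1, had 0.24 and 0.19, and Atf6 had 0.31 and 0.05. For Atf6 in fasted liver the authors' deposited table gives -0.02. Xbp1, the factor whose mRNA IRE1 splices, was at 0.06 and 0.15, and its spliced and unspliced forms were not separated here.

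Of the 5 translocation and export genes, 5 were above 0 in fed and 4 in fasted liver. Ssr1, a subunit of the translocon-associated complex, had 0.38 and 0.20, and Sec61a1, the channel's pore, had 0.28 and 0.24. The dimmer probes of Ssr1 gave 0.45 and 0.18, and 0.18 and -0.16, so they disagreed in fasted liver. Sec61b and the signal peptidase subunit Sec11c were between 0.01 and 0.18. Sec24d, which selects cargo for vesicles leaving the ER, had levels of 8.66 in WT and 8.98 in KO when fed, and 9.15 and 8.84 when fasted. The genotypes changed places between the arrays, with ratios of 0.33 and -0.31. Centred on measured genes, the fasted ratio was -0.24.

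**Figure D3:**
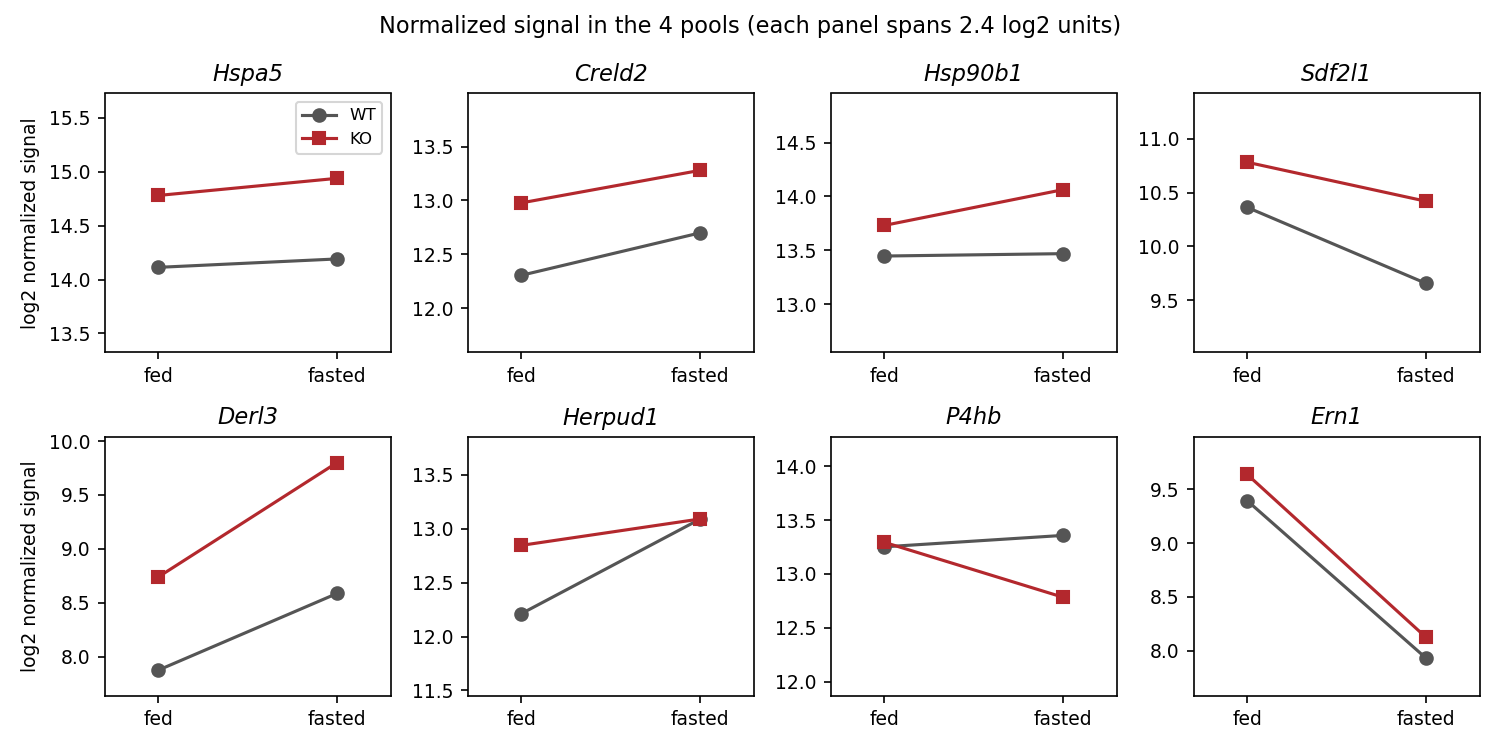
Log2 normalized signal of selected members in the 4 pools, fed and fasted, with a line for each genotype; every panel spans 2.4 log2 units. In the Hspa5 and Derl3 panels the KO line lies above the WT line in both states, while in the Herpud1 panel the lines meet at 13.09 in fasted liver.

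Genes of the same pathways outside the member list had lower medians than the members, 0.12 in fed and 0.04 in fasted liver. Without the PERK and ATF4 arm, 0 of them were at least 1.5-fold higher or lower in either state. Over 8 further lists, 66 of 86 measured genes were above 0 in fed and 53 of 87 in fasted liver, where 53.1% and 52.7% of all genes were. Of the genes in all 8 lists, 1 was at least 1.5-fold higher in each state, about the share of all genes (1.33% fed and 1.26% fasted). These were Nupr1 at 0.63 fed and Ddit3, which encodes CHOP, at 0.79 fasted, both of the PERK and ATF4 arm. That arm also held the 2 genes that were 1.5-fold lower in fasted liver, where 1.48% of all genes were, Atf5 at -1.27 and Chac1 at -1.06. Atf4 itself was at -0.29 fed and 0.30 fasted. The oligosaccharyltransferase, which attaches sugar chains, had 9 of 12 subunits above 0 in fed and 11 of 12 in fasted liver, with medians of 0.12 and 0.11. The other translocon and signal peptidase genes had 11 of 13 above 0 in each state, Ssr3 highest at 0.43 and 0.46. Vesicle export genes had 15 of 17 above 0 in fed and 7 of 17 in fasted liver. Among oxidoreductases and glucosyltransferases, most of which lay near 0, Ero1b, which feeds oxidizing power to the isomerases, had 0.47 and 0.42, and Uggt1, the folding checkpoint of the calnexin cycle, had 0.40 and 0.41.

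The 9 members with an ERSE, whose sequences are printed above, were all above 0 on both arrays, with medians of 0.25 fed and 0.40 fasted. The 21 members whose promoter held none had medians of 0.16 and 0.15, with 18 and 17 above 0. They include Herpud1 and Dnajb11, which hold the shorter ERSE-II, and Herpud1 was the highest of them in fed liver at 0.63. The 2 sets overlapped: Syvn1, with an ERSE, was at 0.17 and 0.11, and Sdf2l1, without one in this window, at 0.42 and 0.76. The 9 measured genes outside the list that hold the element had medians of 0.02 and 0.17. These are descriptions of a few genes on the same 2 arrays and were not tested.

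Between fed and fasted liver the median member lay near 0, and in WT the members of every role went both ways. The share of members at least 1.5-fold lower was above that of all genes in each genotype. In WT the degradation genes ran from -0.60 to 0.88, the chaperones from -0.71 to 0.95, and 4 of the 5 translocation genes were below 0. These values set a signal on 1 array against the same dye on the other, so feeding state and array cannot be told apart, and the pools are those of the genotype comparisons. Without normalization between the arrays the median of all genes stood at 0.46 in WT and 0.45 in KO, so directions are relative to that median; the members named as 1.5-fold lower or higher kept their side of it. In WT liver 15 of 37 were above 0 (fasted over fed), where 49.4% of all genes were, with a median of -0.05. In KO liver 14 were, where 50.2% of all genes were, with a median of -0.08. In WT liver 3 members were at least 1.5-fold higher (Herpud1, Derl3 and, by the brighter of its 2 probes, Dnajb9), against 5.73% of all genes, and 6 were lower, against 5.97%, which made 9 apart, against 11.7%. In KO liver 3 were higher (Derl3, Pdia4 and the same Dnajb9 probe), against 6.74%, and 8 were lower, against 6.8%, which made 11 apart, against 13.5%. Of genes at least as bright as the median member, 9.0% in WT and 10.6% in KO were 1.5-fold lower. Among the 19 members of that brightness, 4 in WT and 6 in KO were. Those lower in both genotypes were Ppib, Derl2, Ern1, Sec61b and Ssr1, 5 of 37 where 4.2% of all genes were. Derl3 was higher in both, as was Dnajb9 by its brighter probe, where 3.91% of all genes were, and 20 members were below 0 in both, against 39.4%. The dimmer Dnajb9 probe was at -0.52 in WT and -0.56 in KO. Derl1, one of those lower in KO liver at -0.69, was at 0.05 there by its second probe and at 0.13 in WT. For Dnajb9 and Derl1 these counts therefore hold for the brighter probe alone. The further probes of Derl2, Sec61b and Ssr1 were below 0 in both genotypes.

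**Figure D4:**
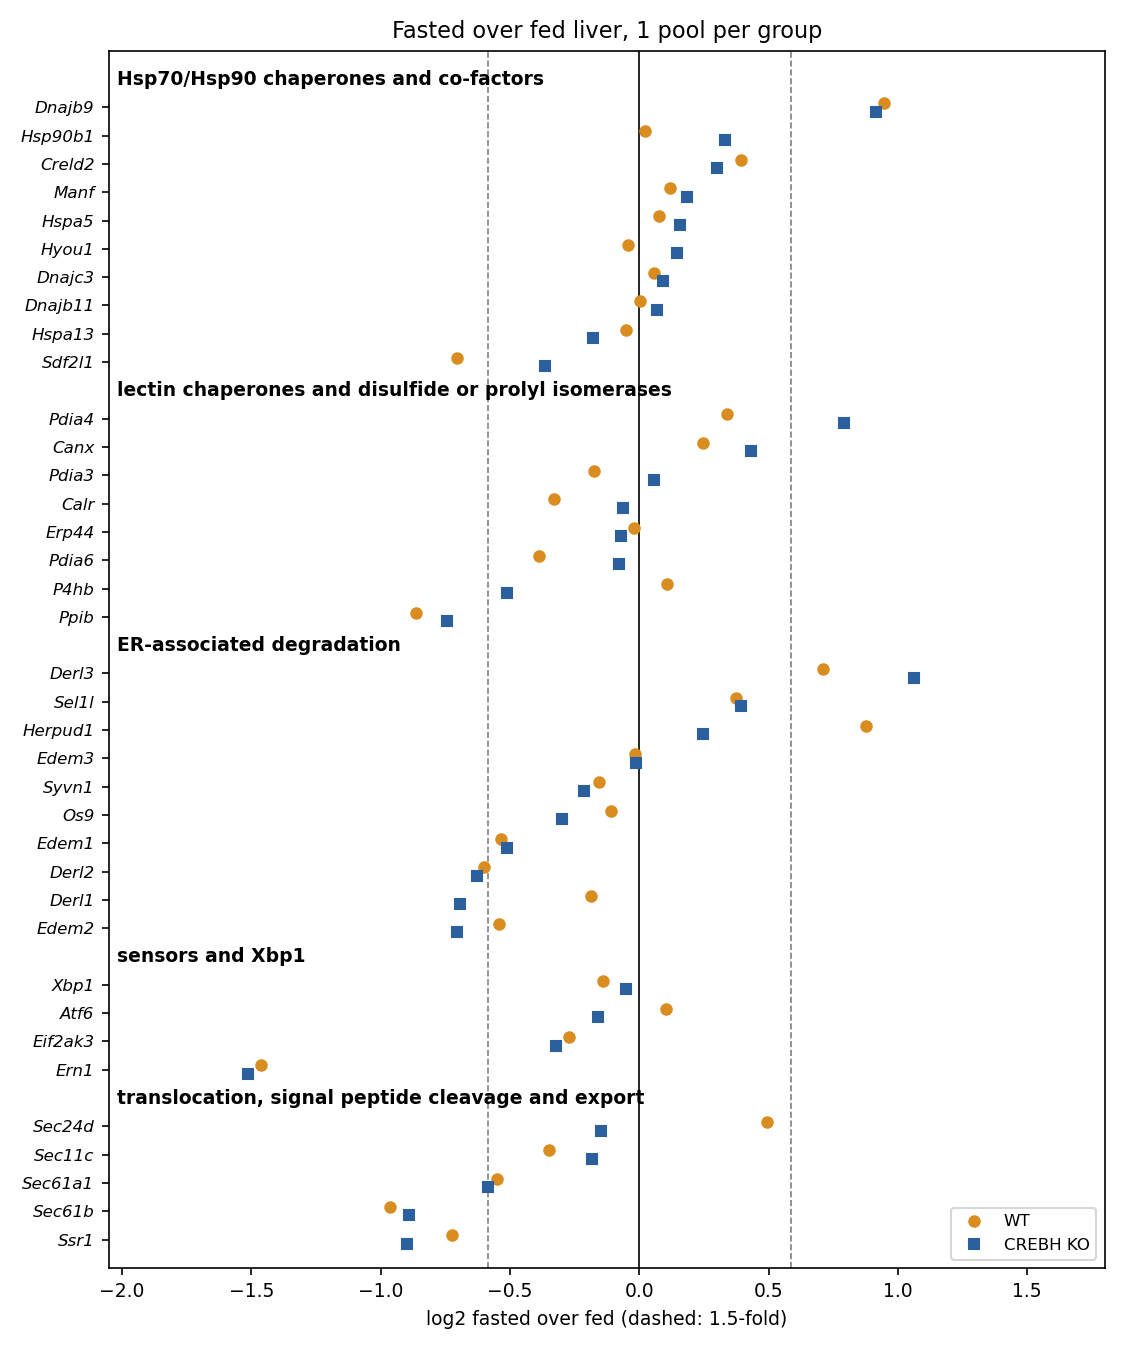
Log2 fasted over fed ratio of each of the 37 genes in WT and in KO liver, grouped by role. Ern1 lies farthest to the left at -1.46 in WT and -1.51 in KO, and the brighter Dnajb9 probe lies to the right at 0.95 and 0.91, where the dimmer probe, not drawn, was at -0.52 and -0.56.

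Ern1 was the member with the largest fasting difference, with levels of 9.39 in WT and 9.64 in KO when fed, and 7.93 and 8.12 when fasted. Both fasted pools were below both fed pools by more than 2-fold, where 2.05% of all genes were in WT and 2.14% in KO, and the WT ratio of -1.46 was at rank 93 from the lowest of 11441 genes. The other genes of the sensor group were closer to 0, Eif2ak3 at -0.27 in WT and -0.32 in KO, Atf6 at 0.10 and -0.16, and Xbp1 at -0.14 and -0.05.

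Of the 5 translocation and export genes, 4 were below 0 in fasted over fed WT liver and 5 in KO liver, with medians of -0.55 in WT and -0.59 in KO. Sec61b, a small subunit of the channel, had WT levels of 13.84 fed and 12.88 fasted, and the KO pools stood 0.05 and 0.12 above them, so both fasted pools were below both fed pools. Ssr1 was at -0.72 and -0.90, and its other 2 probes were also below 0 in both genotypes. Sec61a1 was at -0.55 and -0.59. Outside the list, the other translocon and signal peptidase genes went both ways, with medians of -0.09 in WT and -0.04 in KO. Of these 13 genes, 6 in WT and 5 in KO were above 0. In each genotype 3 were at least 1.5-fold lower, where 5.97% (WT) and 6.8% (KO) of all genes were, and 0 were higher. The lowest was the channel's gamma subunit Sec61g, at -1.31 and -1.07. The others were Spcs2, at -0.70 and -0.86, and Spcs3, at -0.63 and -0.69. The oligosaccharyltransferase had a median of -0.38 and -0.35. Sec24d was the exception, at 0.49 in WT and -0.15 in KO.

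Ppib, too, was lower in fasted liver, at 13.64 and 13.61 in the fed WT and KO pools and 12.77 and 12.87 in the fasted ones. Derl2 was at -0.60 and -0.63, Edem1 at -0.54 and -0.51, and Edem2 at -0.54 and -0.70. Derl3 went against its relatives, at 0.71 in WT and 1.06 in KO, the one member at least 2-fold higher, where 2.28% of all genes were in WT and 2.42% in KO, and Sel1l was at 0.37 and 0.39.

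Most Hsp70 and Hsp90 chaperones were near level, with medians of 0.04 in WT and 0.15 in KO. Hspa5 was at 0.08 and 0.16, and Hsp90b1 at 0.02 and 0.33. Sdf2l1 was the lowest, at -0.71 and -0.36. The probe that stands for Dnajb9 gave 0.95 and 0.91, against the direction of its dimmer probe, so no direction is given for that gene. Dnajb11 likewise was at 0.00 and 0.07 by its brighter probe and at 1.0 and 0.88 by its dimmer one.

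The KO over WT ratio itself was at least 1.5-fold lower in fasted than in fed liver for 3 members, Herpud1 at -0.63, P4hb at -0.62 and Sec24d at -0.64, where 1.98% of all genes were. None was 1.5-fold higher, against 2.25% of all genes, and 4.23% were 1.5-fold apart either way. The ratio was higher in fasted liver for 20 members, against 48.8% of all genes. None was 2-fold apart, against 0.771% higher and 0.602% lower. The highest was Pdia4 at 0.45, and the median member was at 0.02. For Herpud1 the WT pools carried the difference: fasted stood 0.88 above fed in WT and 0.24 above in KO. For P4hb the KO pools carried it, at -0.51 against 0.11 in WT.

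Markers of liver cell types, and of cells that secrete heavily and could hold ER genes, were given the same reading. Of 7 plasma and B cell markers, Tnfrsf17, Pou2af1, Cd79a, Prdm1 and Irf4 were not above background in any pool, and the summed signal of the list was 496 to 531 over the pools. Jchain, the one measured on both arrays, had KO over WT ratios of 0.18 and 0.19. Of 9 pancreatic acinar markers, 6 were not above background in any pool (Cpa1, Cela3b, Pnlip, Pnliprp1, Cpb1 and Rnase1), the measured ones (Cel, Ctrb1 and Amy2a5) had ratios of -0.01 to 0.36, and the summed signal was 1447 in WT and 1685 in KO when fed, and 2089 and 2111 when fasted. The 6 hepatocyte markers were above background in every pool. Of these, 2 were above 0 in fed liver (median -0.21, Alb lowest at -0.37) and 3 in fasted liver (median 0.01, Apob lowest at -0.63). Stellate cell markers had 4 of 5 above 0 in fed and 6 of 6 in fasted liver, with medians of 0.06 and 0.14. The neutrophil markers S100a8 and S100a9 were at -0.47 and -0.61 in fed liver, and at 0.46 and -0.01 in fasted liver. Retnlg, measured in fasted liver only, was at -0.17 there. Cholangiocyte markers had 2 of 3 measured above 0 in fed and 3 of 3 in fasted liver, with medians of 0.08 and 0.27. Of the T cell markers, Cd3e, the one measured in fed liver, was at 0.0023. In fasted liver 2 of 3 T cell markers were above 0, with a median of 0.15. Endothelial markers had 0 of 6 above 0 in fed and 4 of 6 in fasted liver, with medians of -0.05 and 0.06. The 6 Kupffer cell markers were all below 0 in fed liver (median -0.28), and 5 were above 0 in fasted liver (median 0.20); their summed signal was 11207 in WT and 8218 in KO when fed, and 9964 and 10896 when fasted. The part of these cells in the results was not tested.

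The size of the KO over WT difference depended on how the dyes were balanced, while the median member stayed above the median of all genes in each setting tried. Loess, used for the values above, sets bright genes against other bright genes. With each array centred on its measured genes instead, the median member was at 0.47 fed and 0.44 fasted and 11 members were at least 1.5-fold higher on each array. Centring was done without loess, so a dye difference that varies with brightness stays in it. In fed liver the bright Xbp1 went from 0.06 to 0.50, and the dim Hyou1 from 0.21 to -0.21. Bright genes alone were not read under this centring, and the part of brightness was not tested. With the scanner's own processed signals the medians were 0.26 and 0.25. Hspa5 in fed liver is close to the mark: it was at 0.58, just under 1.5-fold, in the authors' deposited table, which otherwise kept the other 3 of the 4 members named for fed liver and all 4 for fasted liver.

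**Figure D5:**
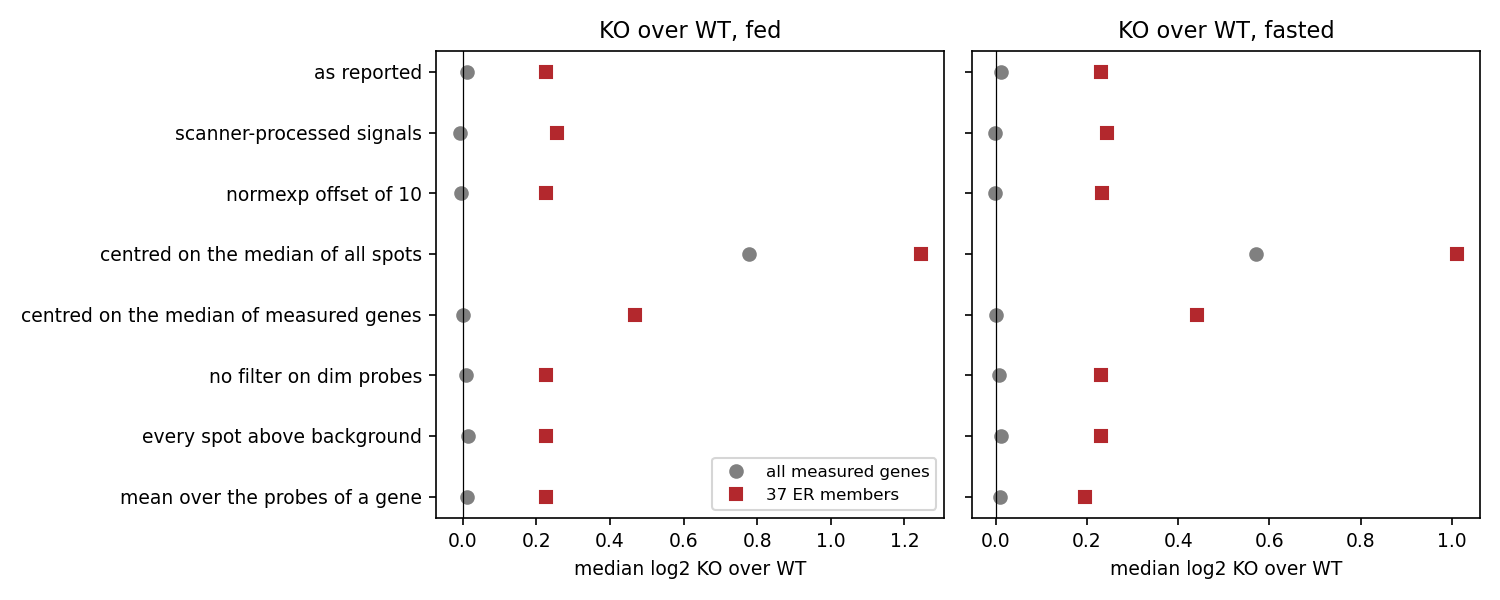
Median log2 KO over WT ratio of the 37 ER genes (red squares) and of all measured genes (grey circles) under each way of processing the arrays, fed and fasted. The members' median lies to the right of that of all genes in every row, by 0.21 to 0.47 in fed and 0.19 to 0.44 in fasted liver.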

How the data were processed

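Liver RNA was measured on 2 two-colour Agilent arrays, with WT labelled in Cy3 and the CREBH KO in Cy5, 1 pool per group. The deposited scanner files hold each spot's intensity, per the file headers made with Agilent Feature Extraction 10.10.1.1; their log10 ratio and p-value columns are also the deposited scanner output, and the p-values were not used. The authors' deposited value table holds log2 ratios, which equalled the scanner's log ratios within 0.005 and have a median of 0 on each array. Its direction was therefore KO over WT by the dyes in the labels, although the sample titles name WT before KO; any further centring is unknown.

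Median foreground and background intensities were corrected with normexp (offset 50), loess-normalized within arrays with control spots at weight 0, and Aquantile-normalized between arrays (limma 3.58.1, R 4.3.3; summaries in Python 3.11.15). Mean signals were not used here. Outlier spots, 216 on the fed and 197 on the fasted array, were dropped and the other spots of a probe averaged. The probe with the highest mean signal stands for a gene. A gene was measured when at least 50% of its spots were above background in every pool compared. The number of arrays limits the precision.

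The normalization was checked on simulated data. The members and lists were chosen with earlier results of these data known. Named are members at least 1.5-fold apart, the highest and lowest of each role and fixed key genes, with others to complete the roles. Alternatives were scanner-processed signals, an offset of 10, 2 centrings, no normalization between arrays, other filters, the mean over probes, the deposited table and a 2-fold mark.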

Additional observations from a re-analysis of the deposited data

Results flagged for a closer look

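For 2 members the KO over WT ratio had opposite signs in fed and fasted liver, each beyond 2 times the technical SD between spots. Derl1 was at 0.31 in fed and -0.20 in fasted liver, a difference of -0.51, while its second probe was above 0 in both states, at 0.14 and 0.06. Sec24d was at 0.33 and -0.31, a difference of -0.64. With arrays centred on measured genes, the fasted ratios were 0.0042 for Derl1 and -0.24 for Sec24d. Neither difference was tested, since each group is 1 pool.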

How the results depend on the processing

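With each array centred on all its spots, the median of all genes itself moved to 0.78 fed and 0.57 fasted for KO over WT. The members' median was then 1.25 fed and 1.01 fasted, with 35 and 32 members at least 1.5-fold apart, and relative to all genes it stood 0.47 and 0.44 higher. Centring on measured genes gave medians of 0.47 and 0.44 with 11 members apart in each state. Scanner-processed signals gave 7 members apart in fasted liver. With all-spot centring the fasting median was -0.22 in KO, and the difference between fed and fasted ratios had a median of -0.19. Without normalization between arrays, the median of all genes was 0.46 in WT and 0.45 in KO for fasting, and that of the members 0.47 and 0.42, with 16 members apart in WT. Under that setting, chosen for single members after seeing the data, Derl2 was at 0.0038 in WT and Sec61a1 at 0.050 in KO, both turned above 0 but still below the median of all genes, as were the other members named as lower. A 2-fold mark left 0 members apart in fed and 1 in fasted liver for KO over WT, 1 for fasting in WT, 2 in KO, and 0 for the difference of ratios. Apart from what the construction shows, the cause was not tested. No paired analysis was possible because the labels carry no replicate numbers and each group is 1 pool. With 1 pool per group, the spread between animals is unknown. For the dim member Derl3, the fed ratio was 1.27 with scanner-processed signals against 0.86 as reported.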

Other observations

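The ERSE is also in the promoters of genes outside the ER list, and 9 of them were measured. Ero1b, an ER oxidase, had KO over WT ratios of 0.47 fed and 0.42 fasted, and Alg12, a mannosyltransferase of glycan assembly, had 0.36 and 0.17. Acacb, the mitochondrial acetyl-CoA carboxylase, was at -0.40 fed and 0.42 fasted (rounded from 0.415), with log2 levels of 12.53 in WT and 12.13 in KO when fed and 10.11 and 10.52 when fasted. Acnat2, an acyltransferase, was at -0.02 fed and 1.53 fasted, with levels of 9.30 and 9.28 when fed and 9.85 and 11.38 when fasted, so the fasted KO pool stood alone at the top. Hnrnpa3 was at 0.06 and 0.32. Pan2, Spats2l, Xlr3b and Zfp57 lay between -0.05 and 0.07 on both arrays. Calr4 was not above background in any pool.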
